A study of Homo sapiens with 16 samples.

Results

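The loci of 8 genes encoding subunits of the transcription factor AP-1 were described: JUN, JUNB and JUND of the Jun family, FOS, FOSB, FOSL1 and FOSL2 of the Fos family, and ATF3. A region belonged to them when a listed ATAC-seq peak lay within 50 kb of the start position of the gene on hg19. Within each read layout, peaks of different libraries sharing 1 bp or more were joined to a region. The 8 loci held 131 of 153040 regions of the paired-end libraries and 111 of 103322 regions of the single-end libraries.

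ATAC-seq measures where a transposase can reach the DNA, here in IMR-90 ER:Ras cells, a human fetal lung fibroblast line carrying a Ras oncogene fused to an oestrogen receptor domain that 4-hydroxytamoxifen (4-OHT) switches on. In the paired-end part, 2 siFOXF1/2 libraries (siRNA against the forkhead factors FOXF1 and FOXF2), 2 JUN-family knockdown libraries and 4 senescent control libraries (Sen, control siRNA) all came from cells given 100 nM 4-OHT for 6 days, and 2 Pro libraries came from cells with control siRNA and no 4-OHT. In the single-end part, 2 sip300/CBP libraries (siRNA against the acetyltransferases p300 and CBP), 2 sip65 libraries (siRNA against the NF-kB subunit p65) and 2 Sen libraries had the same 4-OHT treatment. The titles name cJUN and JUND for the JUN-family knockdown while the treatment label names all 3 Jun genes, and the Pro libraries carry a senescent cell type label although they lack 4-OHT, so Pro is taken as proliferating from its title. Every group comes from 1 cell line, nothing says that replicates are separate cultures, and chromatin accessibility does not report on the transcripts the siRNAs target.

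AP-1 is a dimer of leucine-zipper proteins that binds short TGACTCA sites. Jun proteins pair with each other or with Fos proteins, which need a Jun partner to bind DNA. JUN and FOS are immediate-early genes, switched on within minutes of growth factor signalling through Ras and the MAP kinases, and AP-1 sites are common in the enhancers that open in oncogene-induced senescence. FOSL1 is a Ras-ERK target stabilised by ERK phosphorylation, JUNB and JUND can oppose growth promotion by JUN, and ATF3 is a stress-induced member of the wider family.

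The promoters of JUN, JUNB and JUND, the genes the JUN-family knockdown label names, and of FOS are shown because the knockdown results are read at them. The hg19 start of each lay in a region with a listed peak in all 10 paired-end libraries. The printed bases were not placed on hg19 or matched to peaks. They are the 250 bases before the start in RefSeq (GRCh38.p14), with matches to the motifs searched in capitals. JUN (minus strand) is chr1:58784048-58784297, JUNB (plus strand) chr19:12791236-12791485, JUND (minus strand) chr19:18281623-18281872 and FOS (plus strand) chr14:75278578-75278827.
JUN: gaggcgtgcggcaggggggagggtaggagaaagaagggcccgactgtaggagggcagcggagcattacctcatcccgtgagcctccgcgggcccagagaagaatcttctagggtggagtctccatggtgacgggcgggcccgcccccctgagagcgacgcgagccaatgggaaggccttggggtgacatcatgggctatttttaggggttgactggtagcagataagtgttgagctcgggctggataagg
JUNB: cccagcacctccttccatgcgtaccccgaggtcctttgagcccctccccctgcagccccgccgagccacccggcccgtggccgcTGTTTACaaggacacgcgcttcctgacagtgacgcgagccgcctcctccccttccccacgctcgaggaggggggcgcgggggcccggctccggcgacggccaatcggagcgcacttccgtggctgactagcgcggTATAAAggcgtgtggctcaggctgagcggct
JUND: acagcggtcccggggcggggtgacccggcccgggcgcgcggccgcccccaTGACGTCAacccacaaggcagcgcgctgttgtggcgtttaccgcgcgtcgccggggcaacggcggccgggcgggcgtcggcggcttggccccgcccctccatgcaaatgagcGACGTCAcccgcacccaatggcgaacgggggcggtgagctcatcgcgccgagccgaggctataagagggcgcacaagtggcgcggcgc
FOS: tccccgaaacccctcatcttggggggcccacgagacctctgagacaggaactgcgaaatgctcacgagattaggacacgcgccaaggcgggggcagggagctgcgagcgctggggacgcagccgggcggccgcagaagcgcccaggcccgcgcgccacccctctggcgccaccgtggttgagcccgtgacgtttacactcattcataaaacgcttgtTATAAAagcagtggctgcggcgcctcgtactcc
Each 300-base promoter (250 before to 50 after the start) was searched on both strands. JUND holds the cAMP response element core TGACGTC, the binding letters of CREB and ATF factors, at 2 places (in one of them on both strands, as an 8-base palindrome), and 3.45% of the 35116 promoters in the table hold it. JUNB holds the forkhead letters TGTTTAC, found in 3.42% of all promoters. TATAAA, found in 11.5% of all, is present in JUNB, FOS and FOSB at 31, 33 and 30 bases before the start and in 1 of the 2 promoters listed for ATF3, neither of which was matched to the hg19 start used for its regions. The AP-1 letters TGACTCA, in 4.95% of all promoters, occur in FOSL2, beginning 4 bases after the start. Where letters are given, only exact matches were searched. A variant of a site, in JUN or FOS as elsewhere, would stay in lower case and uncounted. The serum response element and the NF-kB site, searched by name, are in none of the matched promoters and in 1.29% and 5.91% of all. Only these 300 bases were searched, so absence here says nothing about a site farther from the start. Sequences were found for 7 of the 8 genes, and FOSL1 is not among them.

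The neighbourhoods differ in how crowded they are. By RefSeq gene order, no other protein-coding gene lies within 50 kb of JUN, FOS or FOSL2, 1 lies near ATF3, 4 each near JUND and FOSB, 8 near JUNB and 10 near FOSL1. A region in the crowded windows may therefore sit at a neighbouring gene such as PRDX2 and RNASEH2A near JUNB, LSM4 near JUND, VASP near FOSB or CFL1 near FOSL1. Exons, introns and UTRs were not assigned, since no hg19 annotation was used.

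The lists held 60199 to 108323 peaks in the paired-end and 17899 to 71181 in the single-end libraries. Signal is the recovered fragment or read pileup at a peak's summit, divided by the genome-wide background of its library, which was 1.74 to 3.08 fragments in paired-end and 0.195 to 0.475 reads in single-end libraries. In regions held by every library of a layout the median signal of the JUN-family knockdown libraries lay 0.99 and 0.74 log2 units below the Sen mean (shifts of −0.99 and −0.74). The siFOXF1/2 libraries lay 0.22 and 0.27 above it, and Pro 0.08 and 0.10 above. Differences called scaled are relative to these medians, and the unscaled ones are relative to background alone. In peak naming style, Sen replicates 1 and 2 go with Pro and siFOXF1/2, and Sen replicates 3 and 4 with JUN-family knockdown.

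In each comparison a region is called opened if a peak was listed in all libraries of the first-named group and in none of the second, closed if in all of the second and none of the first, and kept if in all of both. These calls have no test. With 2 libraries against 4 the smallest exact two-sided permutation p is 0.133, and with 2 against 2 it is 0.333, so no difference in signal could pass 0.05 in that test, and no model-based test was run. Signals are therefore given with their SD and with whether the groups overlapped.

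All 8 loci were open in proliferating and senescent cells alike. Of the 131 paired-end regions, 62 were present in all 10 libraries, 82 in all 4 Sen libraries and 14 in 1 library only. FOS and FOSB had 19 regions each, JUNB 18, FOSL1 17, JUN and ATF3 16 each, JUND 14 and FOSL2 12. FOSB had 12 and JUNB and FOSL1 11 each that every library held, against 6 each at JUN, JUND, FOS and ATF3 and 4 at FOSL2. In the map of regions by distance, a marker stands at every start position, a small one at FOSB.

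**Figure D1:**
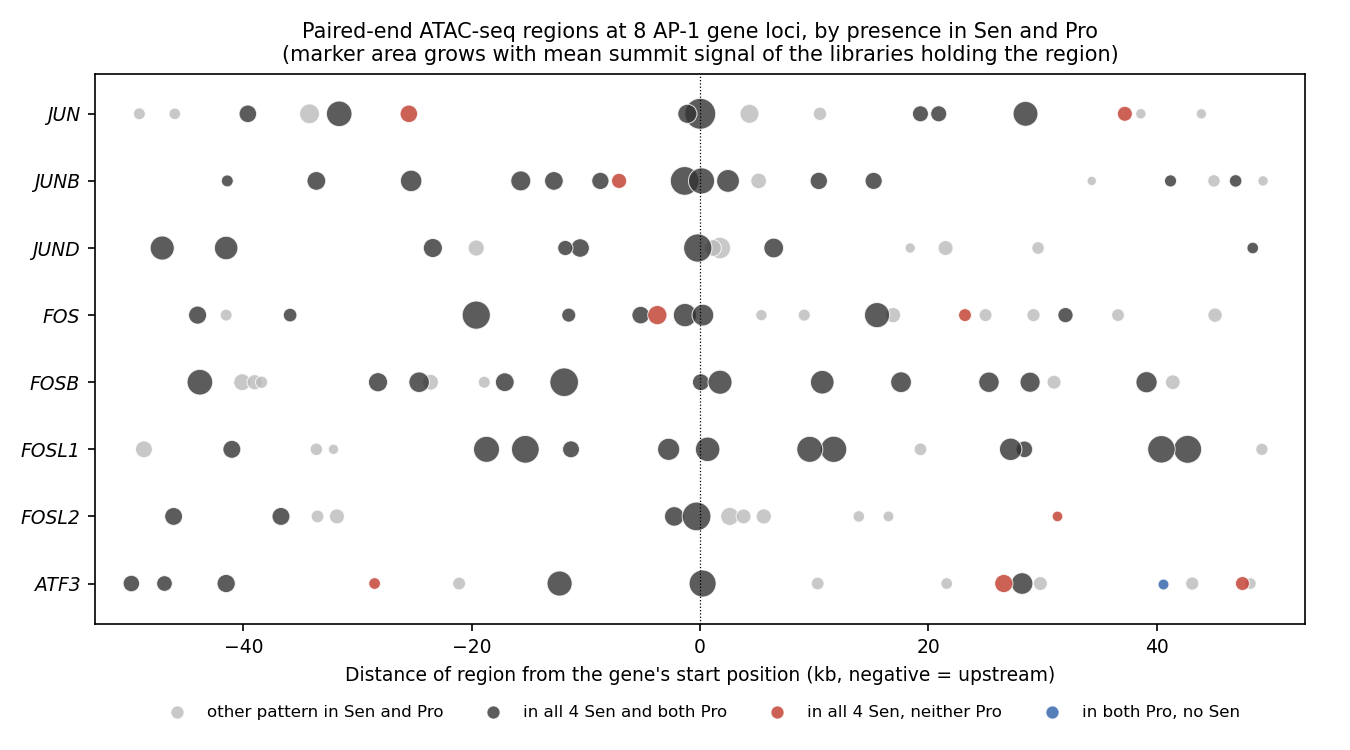
Regions at the 8 loci in the paired-end libraries, by distance from the start position in kb (negative is upstream on the gene's strand). Marker area grows with mean summit signal, colour gives presence in Sen and Pro, and the 9 regions opened in Sen (red) include 1 within 5 kb of a start.

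The promoters differed widely in strength. In the 4 Sen libraries the JUN promoter peak ranked above 93.7 to 97.8% of all peaks of its list by q-value, and those of JUND, ATF3 and FOSL2 above 92.6 to 98.7%, 90.3 to 98.5% and 86.9 to 94.1%. FOSL1 stood above 79.0 to 83.6%, JUNB above 66.7 to 82.0% and FOS above 63.7 to 76.3%. FOSB was the weakest, above 26.2 to 50.8% of the peaks, with a fold of 3.68 to 4.81 over local background in the authors' own values. The order from JUN to FOSB was not tested. The ranges of JUN, JUND, ATF3 and FOSL2 overlapped, as did those of FOSL1 and JUNB and those of JUNB and FOS.

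Sen against Pro asks what oncogene-induced senescence did to these loci. The promoters were open in both states, with a lower summit signal in every Sen than in either Pro library at all 8 genes. Of all kept regions 36.4% were lower without overlap after scaling. In the strength deciles of the 8 promoters this share ran from 22.9% to 96.2%. Regions were called opened at JUN, FOS, ATF3, JUNB and FOSL2, 9 of 82 held by Sen (11.0%), against 26.1% of all regions. The lists show a gain of 2-fold or more over the local background at JUN and ATF3 only. By the lowest q-value over the Sen libraries, the top opened regions were at JUN and ATF3, and by summit signal at FOS.

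The JUN promoter (chromosome 1, 59249011 to 59250522) had signals of 119.9, 114.8, 114.2 and 115.3 in Sen, against 198.6 and 219.9 in Pro. The 4 Sen values lay close together and far below both Pro values, a scaled log2 difference of −0.76. The JUND promoter (chromosome 19, 18391987 to 18393275) had 93.3, 116.0, 87.7 and 93.5 in Sen, against 168.7 and 205.3 in Pro, a scaled difference of −0.85. The JUNB promoter (chromosome 19, 12902104 to 12902776) had 80.3, 99.2, 83.7 and 88.5 in Sen, against 117.7 and 136.5 in Pro, and −0.44 after scaling. No Sen library reached a Pro library at any of the 3 Jun genes.

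In the Fos family, the FOS promoter (chromosome 14, 75745159 to 75746302) had 63.0, 65.2, 66.4 and 50.7 in Sen, against 84.9 and 77.3 in Pro. Its scaled difference, −0.32, was the smallest of the 8. FOSB (chromosome 19, 45970816 to 45971833) had 42.0, 34.0, 37.0 and 28.8 in Sen, against 49.9 and 53.6 in Pro, −0.47 after scaling. FOSL1 (chromosome 11, 65666385 to 65668279) had 74.7, 73.2, 67.1 and 69.4 in Sen, against 118.8 and 124.4 in Pro, −0.68 after scaling. The promoter of FOSL1, the Fos member most tied to Ras signalling, was thus lower in Sen like the others. FOSL2 (chromosome 2, 28614556 to 28616391) averaged 102.4 ± 2.71 in Sen (SD, n = 4) and 176.1 ± 5.51 in Pro (SD, n = 2), −0.69 after scaling. ATF3 (chromosome 1, 212781294 to 212783152) averaged 94.7 ± 13.4 in Sen (SD, n = 4) and 145.8 ± 4.04 in Pro (SD, n = 2), −0.54 after scaling.

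**Figure D2:**
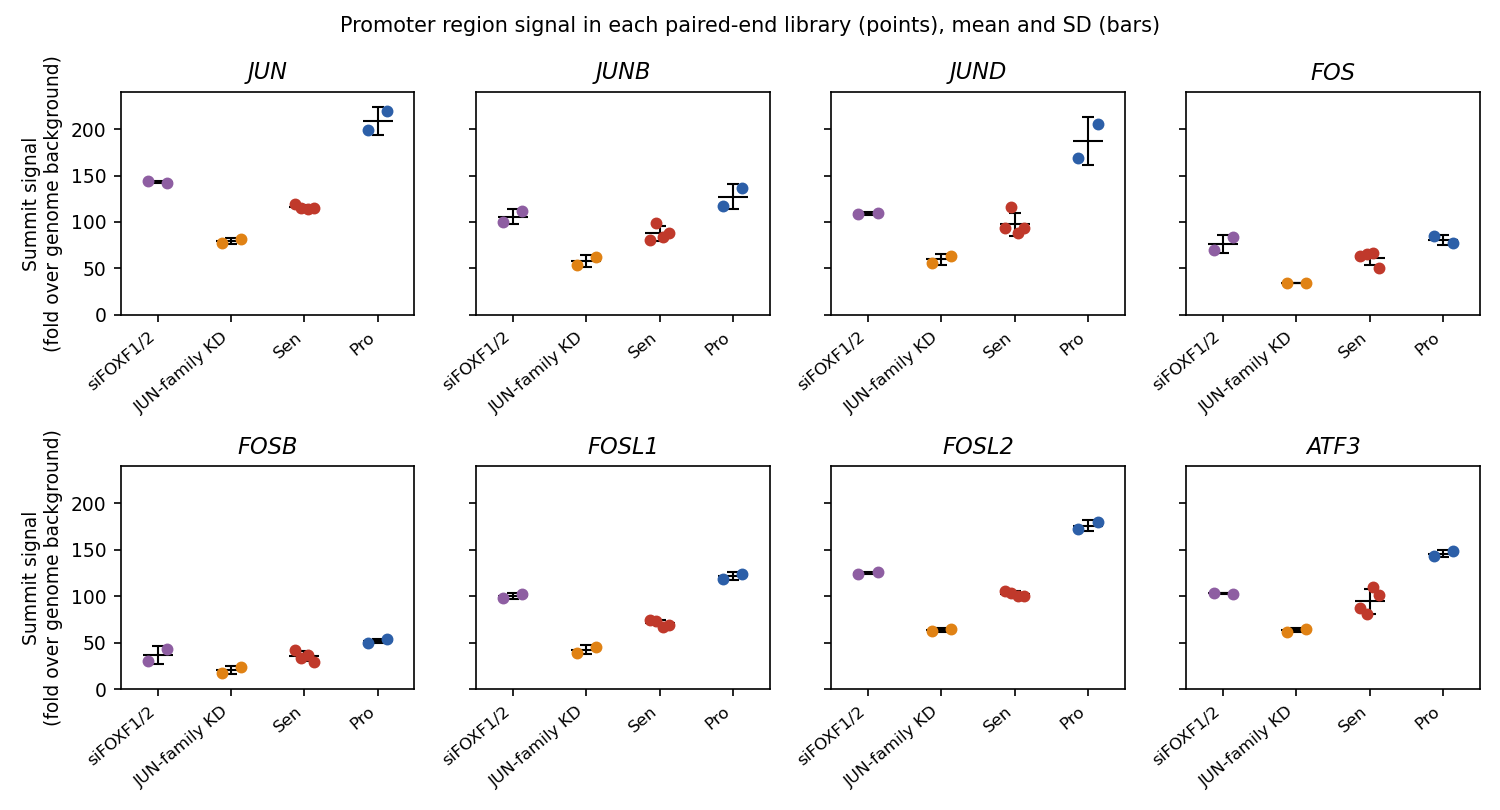
Summit signal (fold over the genome-wide background) at the promoter region of each gene in every paired-end library, with mean and SD per group. All 4 Sen points lie below both Pro points in each panel, JUN-family knockdown lies lower still on this unscaled axis, and FOSB has the lowest signal of the 8 genes in Sen, 35.5 ± 5.52 (SD, n = 4).

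Regions strong in Pro showed the same direction across the genome. Strength was ranked here by q-value in Pro, itself a group of the comparison, so shares by strength are not independent of the difference. In the strongest decile of all kept regions, which holds JUN, JUND, FOSL2 and ATF3, 96.2% were lower in Sen without overlap and the median scaled difference was −0.63. JUN and JUND lay below that median, FOSL2 slightly below it and ATF3 above it. FOSB, at −0.47, lay below the median of its own decile, 0.02, in which 22.9% were lower. FOSL1, JUNB and FOS also lay below the medians of their deciles, −0.44, −0.31 and −0.20. In these 76.7%, 56.0% and 42.3% were lower. Over all 71 kept regions of the loci, 46 (64.8%) were lower in Sen without overlap, where all kept regions gave 36.4% and regions of the same strength 51.2%. Another 7 (9.86%) were higher, against 27.0% of all kept regions and 18.7% at the same strength. The median difference was −0.36 at the loci and −0.09 over all kept regions. FOS had 7 of 9 kept regions lower and 0 higher, FOSL2 4 of 4 lower, FOSB and FOSL1 8 of 12 each with 1 higher, JUN 5 of 7, ATF3 4 of 6 and JUND 4 of 8, each with 1 higher, and JUNB 6 of 13 with 2 higher.

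The largest difference below a Pro level was at the FOS −11.5 kb region (chromosome 14, 75733554 to 75734417). It had 18.6, 11.6, 22.2 and 19.9 in Sen, against 40.8 and 43.5 in Pro, a scaled difference of −1.17, and 1.65% of all kept regions lay lower. In the other direction, the FOSL1 −41.0 kb region averaged 47.3 ± 5.13 in Sen (SD, n = 4) and 27.4 ± 5.11 in Pro (SD, n = 2), 0.88 higher in Sen. The ATF3 −46.9 kb region averaged 34.1 ± 4.77 in Sen and 20.8 ± 7.94 in Pro (SD, n = 4 and 2), 0.85 higher. The FOSB −24.6 kb region was 0.73 higher, at 70.6 ± 8.05 in Sen and 45.2 ± 4.69 in Pro (SD, n = 4 and 2).

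Few regions of the loci were gained or lost. Of 82 regions held by all Sen libraries, 9 (11.0%) were opened, against 26.1% of all regions and 18.9% at the loci's peak strength. Of 75 held by both Pro libraries, 1 (1.33%) was closed, against 3.96% of all, and 3 were without Pro replicate 1. ATF3 had 3 opened regions, JUN and FOS 2 each, JUNB and FOSL2 1 each, and JUND, FOSB and FOSL1 none. Within 5 kb of a start 1 of 16 Sen-held regions was opened, and 8 of 66 were farther out.

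The JUN −25.5 kb region (chromosome 1, 59274980 to 59275597) had 33.8, 42.8, 37.6 and 45.2 in Sen and no listed peak in Pro. The JUN +37.2 kb region (chromosome 1, 59212338 to 59212902) had 31.7, 32.8, 27.8 and 30.0 in Sen and no peak in Pro. A missing peak bounds a signal without measuring it, because listing needs enough signal over the local background. With the floor set at that local background, each of these 2 regions was at least 3.03-fold higher in Sen. ATF3 +26.6 kb (chromosome 1, 212808440 to 212808843) had 59.2, 57.6, 45.8 and 48.3 in Sen and no peak in Pro, at least 2.28-fold higher. ATF3 +47.5 kb (chromosome 1, 212829277 to 212829711) had 19.3 to 25.2 in Sen and none in Pro, at least 2.24-fold. These 4 of the 9 opened regions reached a 2-fold bound, and the same 4 overlapped a peak region in both single-end Sen libraries.

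The other 5 had bounds under 2-fold. FOS −3.74 kb (chromosome 14, 75741625 to 75741855) had high signals of 54.4, 64.0, 56.3 and 58.5 in Sen and no peak in Pro. Its local background was itself 9.51 to 13.5 times the genome's, so the fold over it was 4.45 to 5.94. The JUNB −7.09 kb region had 27.6, 34.0, 29.8 and 30.4 in Sen, none in Pro and a bound of 1.14. Bounds were 1.84 at ATF3 −28.5 kb, 1.22 at FOS +23.2 kb and 1.14 at FOSL2 +31.3 kb. The median local background over Sen-held regions was 6.49 times the genome's at the loci and 2.38 times over all regions. The closed region, ATF3 +40.5 kb, had no peak in Sen and 11.5 and 12.6 in Pro, with a bound of 1.79.

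**Figure D3:**
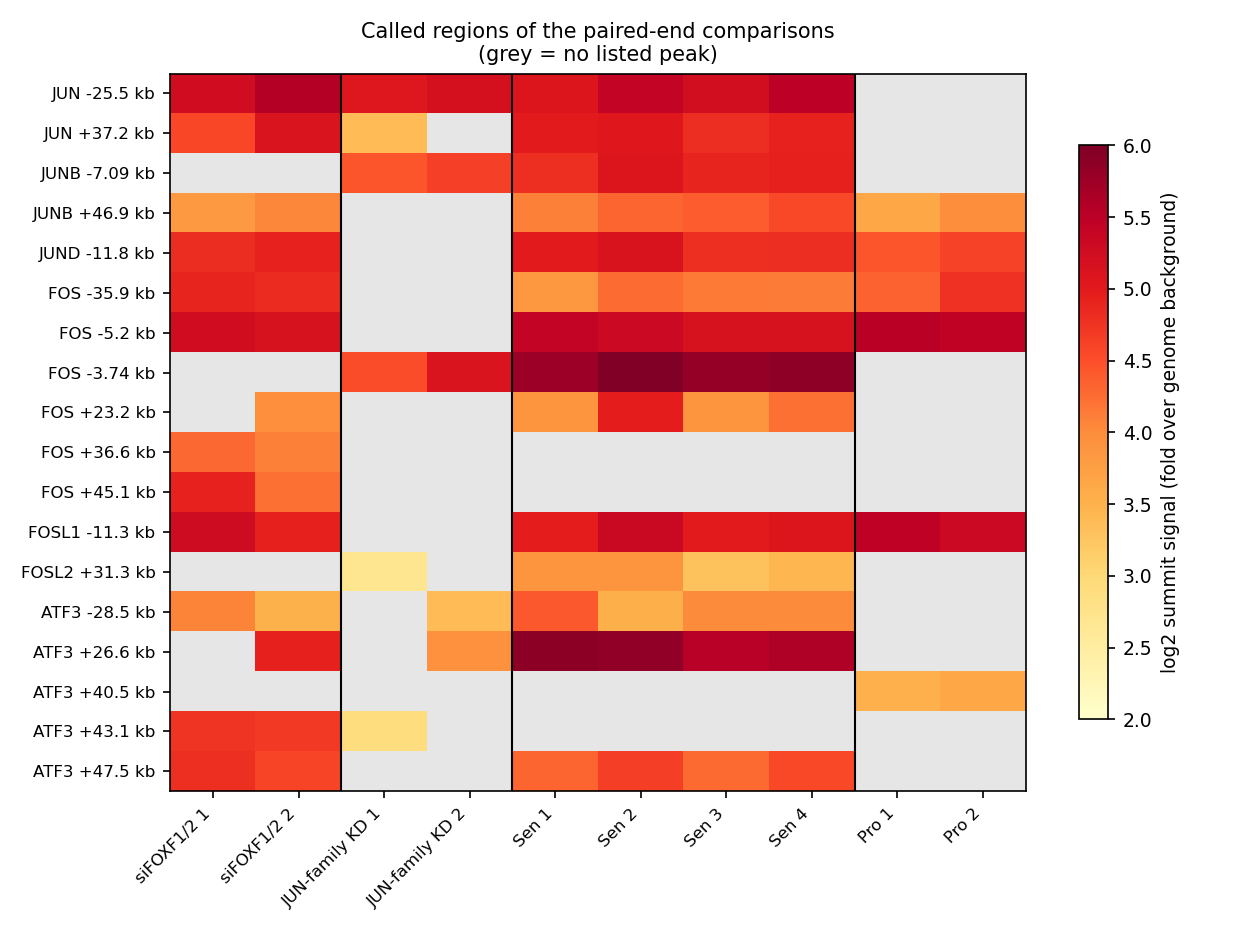
The 18 regions called opened or closed in a paired-end comparison, as log2 summit signal in each library (columns grouped as siFOXF1/2, JUN-family knockdown, Sen and Pro), with grey for no listed peak. FOS −3.74 kb and JUNB −7.09 kb are absent from both siFOXF1/2 and both Pro libraries and present in the other 6.

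FOXF1/2 knockdown against Sen asks whether the loci depend on the forkhead factors. All 8 promoters kept their peaks. Of 82 Sen-held regions 3 (3.66%) were closed, against 8.10% of all regions, and of 91 regions held by both siFOXF1/2 libraries 3 (3.30%) were opened, against 9.70% of all. Without siFOXF1/2 replicate 2 the counts were 5 closed and 11 opened. Among 77 kept regions 6 (7.79%, 23.4% of all) were higher and 15 (19.5%, 19.8% of all) lower without overlap. The balance turned with background scaling alone, to 30 higher and 6 lower, and leaving out 1 siFOXF1/2 library gave 12 and 13 higher and 24 and 28 lower.

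The closed regions were FOS −3.74 kb, JUNB −7.09 kb and FOSL2 +31.3 kb. Pro listed no peak at them either, and both comparisons share the Sen libraries. FOS −3.74 kb had no peak in siFOXF1/2 and 54.4 to 64.0 in Sen, a bound of 1.98. JUNB −7.09 kb and FOSL2 +31.3 kb had bounds of 1.18 and 1.26, so none reached 2-fold on the unscaled scale, and FOS −3.74 kb did (2.32) after scaling. The JUN −25.5 kb region kept its peak, with 37.9 and 47.2 in siFOXF1/2 and 33.8 to 45.2 in Sen.

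The opened regions were ATF3 +43.1 kb, with 26.8 and 26.0 in siFOXF1/2, FOS +45.1 kb, with 30.2 and 18.7, and FOS +36.6 kb, with 19.5 and 17.1. None of the 4 Sen libraries listed a peak there. Their bounds were 2.90, 3.11 and 2.44, or 2.28, 2.52 and 1.92 after scaling. Neither Pro library listed a peak there, and JUN-family knockdown replicate 1 listed ATF3 +43.1 kb at 7.47.

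At the promoters, siFOXF1/2 overlapped Sen at 7 of 8 genes after scaling. FOSL1 did not overlap, at 97.6 and 102.8 in siFOXF1/2, against 74.7, 73.2, 67.1 and 69.4 in Sen, 0.25 higher after scaling. Of all kept regions in its strength decile 18.8% were higher and 26.8% lower without overlap, so such a difference was common. JUN averaged 143.1 ± 1.15 in siFOXF1/2 and 116.0 ± 2.59 in Sen (SD, n = 2 and 4), 0.06 after scaling. The other 6 lay between −0.21 at FOSB and 0.08 at FOS. Without scaling, JUN, JUNB, FOS and FOSL2 also lay above every Sen library, by 0.30, 0.27, 0.32 and 0.29, and FOSL1 by 0.50. Among kept regions higher in siFOXF1/2, JUN −39.6 kb differed most (chromosome 1, 59289027 to 59289645), with 80.4 and 66.5 in siFOXF1/2 and 44.8, 46.8, 30.4 and 35.1 in Sen, 0.67 higher. Sen replicates 1 and 2 were closer to siFOXF1/2 there than replicates 3 and 4. The lowest difference was at JUNB −41.4 kb, which had 11.1 and 10.9 in siFOXF1/2 and 19.3, 19.2, 19.6 and 15.2 in Sen, −0.98. FOSL2 −46.1 kb had 22.6 and 36.3 in siFOXF1/2 and 45.8, 45.2, 42.8 and 49.5 in Sen, −0.92.

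JUN-family knockdown against Sen asks how the genes' own loci look under siRNA against Jun genes, since AP-1 is known to act on Jun and Fos genes. How far Jun proteins were depleted is not measured by these lists. JUN, JUNB and JUND kept their promoter peaks. Of 82 Sen-held regions of the loci 7 (8.54%) were closed, against 31.6% of all regions and 22.3% at the same strength. In lists cut to equal length 1 of the regions was closed. Opened regions numbered 0 of 70, against 5.91% of all. Without knockdown replicate 1 there were 12 closed regions, without Sen replicate 2 there were 11, and without knockdown replicate 2 there were 3 opened ones. All 7 closed regions were among the weaker ones: 0 of 53 in the strongest 5 deciles were closed (9.49% of all regions there), and 7 of 29 (24.1%) in the weakest 5, against 53.8% of all.

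**Figure D4:**
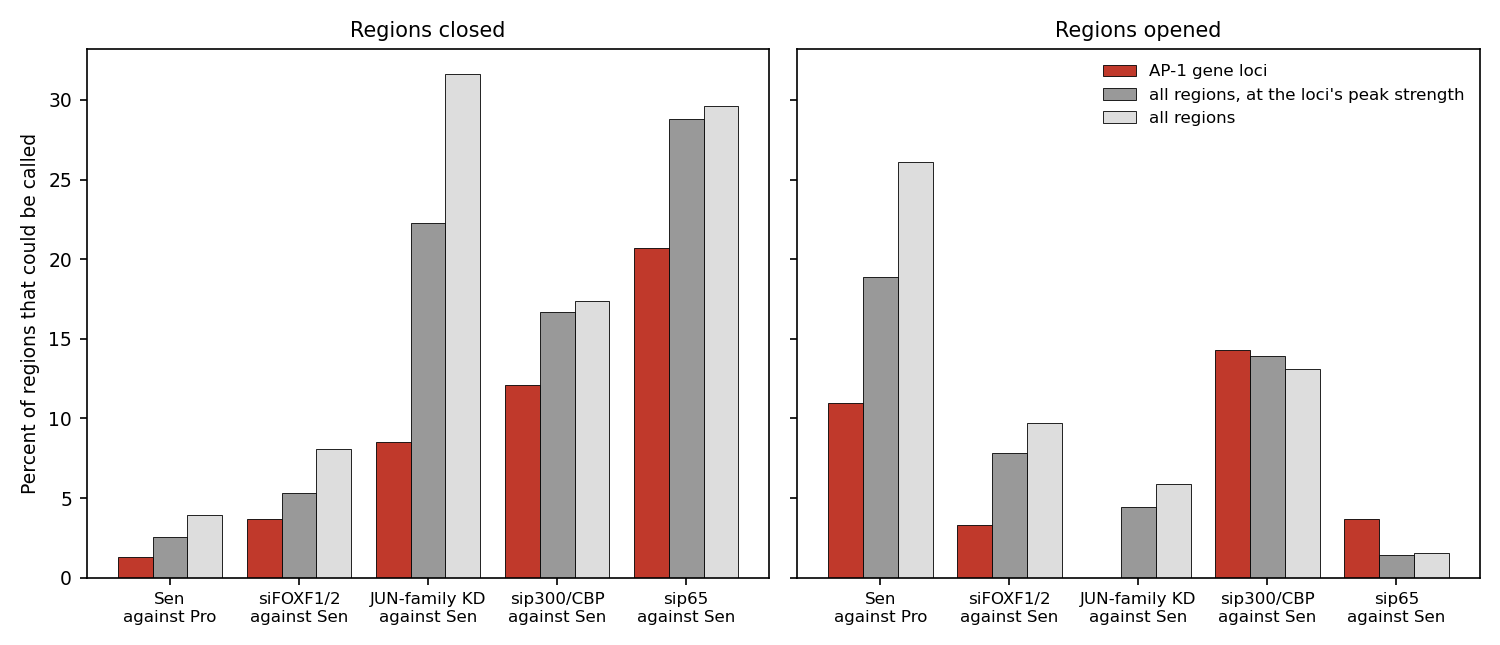
Percent of regions closed (left) and opened (right) in each comparison, at the AP-1 gene loci, over all regions weighted to the loci's peak strength, and over all regions. The largest gap is for JUN-family knockdown, with 8.54% closed at the loci, 22.3% at the same strength and 31.6% over all.

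The unscaled JUN promoter signal was 76.9 and 82.0 in JUN-family knockdown, against 119.9, 114.8, 114.2 and 115.3 in Sen. JUNB had 53.6 and 62.2, against 80.3, 99.2, 83.7 and 88.5 in Sen, and JUND 55.8 and 63.6, against 93.3, 116.0, 87.7 and 93.5 in Sen. On this scale all 8 promoters were lower in the knockdown, by −0.55 at JUN to −0.84 at FOS in log2. Relative to the medians of the libraries the direction turned: the scaled difference was 0.32 at JUN, 0.26 at JUNB, 0.18 at FOSL2 and 0.12 at FOSL1, without overlap, and 0.30 at ATF3, 0.16 at JUND, 0.08 at FOSB and 0.02 at FOS, with overlap. Over the 67 kept regions 21 (31.3%) were higher, against 30.5% of all kept regions, and 6 (8.96%) lower, against 20.8%. With background scaling alone 61 were lower and 1 higher.

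The closed regions lay at FOS (−35.9, −5.20 and +23.2 kb), ATF3 (+47.5 kb), JUND (−11.8 kb), JUNB (+46.9 kb) and FOSL1 (−11.3 kb). ATF3 +47.5 kb, one of the regions opened in Sen, had no peak in the knockdown and 19.3 to 25.2 in Sen, a bound of 2.43. FOS −35.9 kb had 14.5, 19.2, 17.7 and 17.5 in Sen and none in the knockdown, with a bound of 2.08. FOS −5.20 kb (chromosome 14, 75739955 to 75740613) had 42.4, 39.6, 35.3 and 35.5 in Sen and none in the knockdown, yet its bound was 1.48. The remaining 4 had bounds of 1.27 to 1.58, and after scaling none of the 7 reached 2-fold. The size of the difference at these 7 places could not be set from the lists. Close to JUND, 2 small regions were also without a peak in both knockdown libraries, though not in every Sen library. JUND +1.74 kb had 40.6, 48.1 and 44.4 in Sen replicates 1, 3 and 4 and none in replicate 2, and JUND +1.13 kb had 28.2 in Sen replicate 1 alone.

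The regions opened in Sen behaved differently from each other. JUN −25.5 kb stayed, with 33.1 and 36.3 in JUN-family knockdown and 33.8 to 45.2 in Sen, a log2 difference of 0.67 after scaling and of −0.19 unscaled. FOS −3.74 kb had 22.7 and 34.3, against 54.4 to 64.0 in Sen. JUNB −7.09 kb had 21.8 and 24.9, against 27.6 to 34.0 in Sen. JUN +37.2 kb was listed in 1 of the 2 knockdown libraries, at 10.4, and ATF3 +26.6 kb in the other, at 15.4. ATF3 +47.5 kb and FOS +23.2 kb were listed in neither.

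Among kept regions the lowest scaled difference was at JUN −39.6 kb, which had 9.09 and 19.4 in JUN-family knockdown, against 44.8, 46.8, 30.4 and 35.1 in Sen, −0.68 with overlap. JUNB +10.4 kb had 13.6 and 16.4 in the knockdown and 49.9, 46.8, 32.7 and 30.4 in Sen, −0.52. At these 2 regions Sen replicates 3 and 4 lay below replicates 1 and 2, and how much this adds to the differences was not tested. ATF3 −21.1 kb (chromosome 1, 212760604 to 212761248) had 23.4 and 23.9 in the knockdown, against 10.3, 14.4, 16.4 and 18.7 in Sen, 1.56 higher after scaling and higher without scaling too. FOS −11.5 kb had 18.5 and 28.8, against 18.6, 11.6, 22.2 and 19.9 in Sen, 1.26 higher after scaling, and its unscaled values overlapped.

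**Figure D5:**
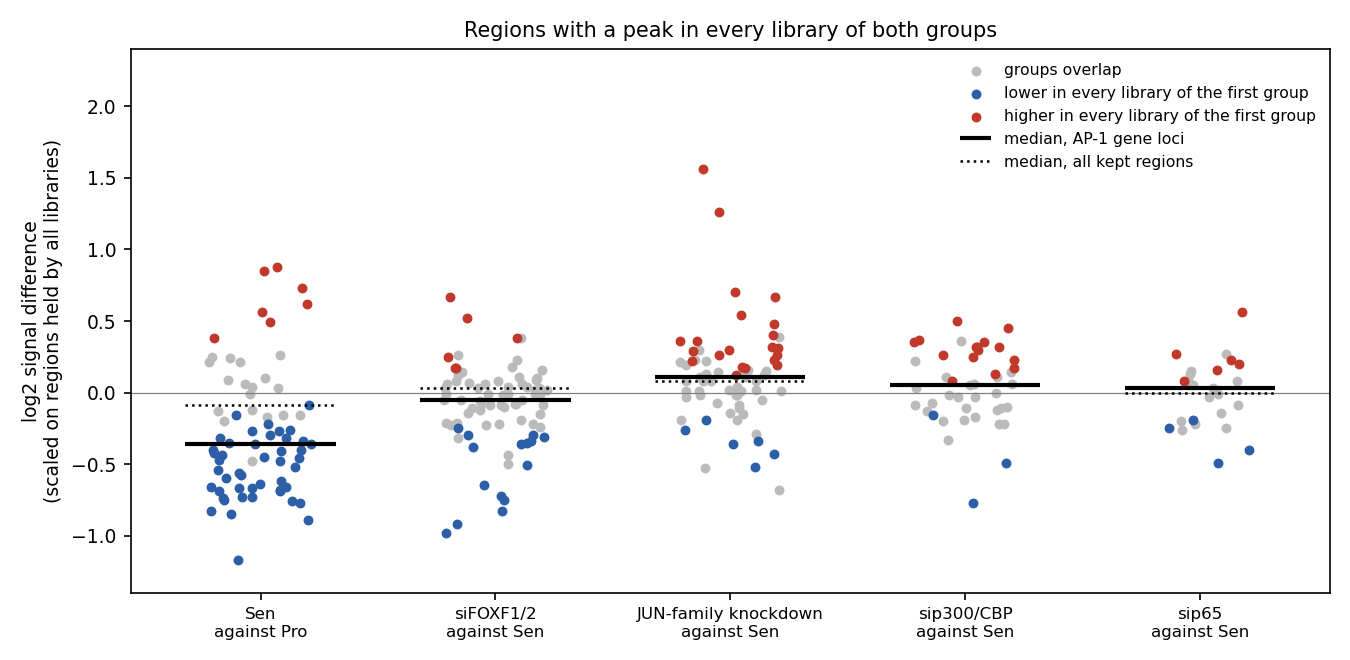
Scaled log2 signal difference of each region of the loci kept in a comparison, first group minus second, coloured by whether the groups overlap, with the median of the loci (solid) and of all kept regions (dotted). The Sen against Pro points centre at −0.36 and the other medians lie between −0.05 and 0.11.

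The single-end libraries had a low background pileup, 0.195 to 0.475 reads, though their depth in reads is unknown. Of the 111 regions 24 were in all 6 libraries, 58 in both Sen libraries and 24 in 1 library only. A promoter region was listed at 7 genes, and none lay within 1 kb of the FOSB start, the weakest promoter of the paired-end libraries. Of the 58 Sen-held regions, 54 overlapped a region of all 4 paired-end Sen libraries.

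p300/CBP knockdown against Sen tests the need for these coactivators. Of the 58 Sen-held regions 7 (12.1%) were closed, against 17.4% of all, and of 56 regions held by both sip300/CBP libraries 8 (14.3%) were opened, against 13.1% of all. Without Sen replicate 1 there were 15 closed regions, without sip300/CBP replicate 1 there were 14, and without sip300/CBP replicate 2 there were 17 opened ones. JUN held 4 of the 7 closed regions, at −1.08, +19.6, +20.7 and +37.2 kb, among its 9 Sen-held regions. Their bounds were 0.715 to 0.889, so a lower signal could not be told from a missed peak. The JUN −1.08 kb region (chromosome 1, 59250759 to 59250962), just upstream of the promoter, had no peak in sip300/CBP and 78.1 and 44.2 in Sen. JUN +37.2 kb had none in sip300/CBP and 43.4 and 18.9 in Sen. FOSL2 −46.1 kb, the strongest of the 7 by q-value, had none in sip300/CBP and 69.4 and 37.9 in Sen, with a bound of 1.25.

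The 8 opened regions were at FOS (3), FOSB (3), JUNB (1) and JUND (1). FOS +16.5 kb had 60.6 and 64.7 in sip300/CBP and no peak in Sen, and FOS +17.0 kb had 64.3 and 54.5 and none. With the local floor no closed or opened region reached a 2-fold bound, the highest unscaled one being 1.36 at JUND +23.3 kb.

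The JUN promoter had 121.1 and 98.8 in sip300/CBP, against 117.1 and 75.8 in Sen, 0.13 after scaling. JUND had 87.1 and 64.7, against 82.4 and 54.7 in Sen, 0.08 after scaling. At both genes the groups overlapped before scaling and not after it. ATF3 and FOSL2 overlapped, at 0.22 and −0.13. JUNB, FOS and FOSL1 were each listed in sip300/CBP replicate 1 and not in replicate 2. Among 44 kept regions 15 (34.1%, 27.3% of all) were higher and 3 (6.82%, 17.5% of all) lower without overlap. With background scaling 6 were higher, and leaving out 1 library gave 20 to 27 higher and 8 to 14 lower. ATF3 +47.5 kb was lowest, with 37.9 and 40.9 in sip300/CBP, against 73.7 and 54.7 in Sen, −0.77.

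p65 knockdown against Sen tests the need for NF-kB. Of the 58 Sen-held regions 12 (20.7%) were closed, against 29.6% of all, and of 27 regions held by both sip65 libraries 1 (3.70%) was opened, against 1.53% of all. FOSL1 held 4 of the closed regions (of 12 Sen-held), ATF3 3 (of 8), FOS and FOSB 2 each (of 7 and 10) and JUN 1 (of 9). They include the promoters of FOSL1, with no peak in sip65 and 82.4 and 48.4 in Sen, and of FOS, with none in sip65 and 78.1 and 48.4 in Sen. All 12 lay among the 29 Sen-held regions in the weaker 5 deciles of strength (41.4%), against 44.5% of all regions there. In the stronger 5 deciles 0 of 29 were closed, against 14.6% of all. Bounds were 0.615 to 1.05, so a lower signal could not be told from a missed peak. Without sip65 replicate 1 there were 32 closed regions, and without Sen replicate 1 there were 27. The sip65 replicate 2 list was the shortest of the study, with 17899 peaks, and without it there were 7 opened regions.

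The promoters of JUN, FOSL2 and ATF3 were kept upon p65 knockdown. JUN had 95.7 and 102.6 in sip65, against 117.1 and 75.8 in Sen, 0.08 after scaling. ATF3 had 92.5 and 102.6, against 99.8 and 73.6 in Sen, 0.20, and FOSL2 82.9 and 82.1, against 121.4 and 69.4 in Sen, −0.14. ATF3 +26.6 kb, opened in Sen, had no peak in sip65 and 86.7 and 44.2 in Sen, while sip300/CBP kept it at 60.6 and 64.7. The opened region, ATF3 −28.5 kb, had 35.1 and 41.0 in sip65 and no peak in single-end Sen. The same place had a peak in all 4 paired-end Sen libraries, at 11.6 to 21.4. Among 25 kept regions 6 (24%, 19.4% of all) were higher and 4 (16%, 19.8% of all) lower. With background scaling 3 were higher and 0 lower, and leaving out 1 library gave 7 to 18 higher and 7 to 13 lower.

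The number of peaks at the loci was counted per library. It was 103.5 ± 5.20 in Sen and 84 ± 4.24 in Pro (SD, n = 4 and 2; ratio 1.23, exact two-sided permutation p 0.133). Per 1000 listed peaks the ratio was 0.801, the other way round. siFOXF1/2 had 103.5 ± 6.36 and Sen 103.5 ± 5.20 (SD, n = 2 and 4; exact permutation p 0.933). JUN-family knockdown had 84 ± 5.66, a ratio to Sen of 0.812 (exact permutation p 0.133) and of 1.34 per 1000 peaks. sip300/CBP averaged 72.5 ± 14.8 and single-end Sen 72.5 ± 10.6 (SD, n = 2 each; exact permutation p 1), and sip65 44.5 ± 20.5 (exact permutation p 0.333). The p of 0.133 and 0.333 are the smallest these group sizes give.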

How the data were processed

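Of the 16 deposited peak lists, 10 came from paired-end (35 bp) and 6 from single-end (75 bp) libraries, per the labels' protocols. The submitters' processing notes name MACS2 2.1.1, Bowtie2 2.3.4.1, deepTools 3.1.1, SAMtools 1.9 and the build hg19. How the authors shifted reads, removed duplicates or set the caller is not stated in the labels. Each list was called by the authors on 1 library. Its deposited columns give a score, a fold ratio of summit over local background, −log10 p and −log10 q, which lies above 4 in every list. The score was not used. Mitochondrial peaks (8 to 10 in single-end lists, 0 in paired-end lists) were left out.

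Whole summit pileups were recovered from the deposited fold and −log10 p and divided by the 1st percentile of local background. In each list 100.0% were whole, to a tolerance of 0.002 in −log10 p, widened above a −log10 p of 10. Differences in log2 are between group means of the log2 signals, so they can differ from the log2 ratio of printed means. Scaled values subtract each library's median over regions held by all libraries of the layout. A bound is the lowest holder's signal over the highest level that would escape listing elsewhere, at the local background of the holders. Strength is the lowest −log10 q over the libraries of the second-named group, or of the first-named group for opened regions, in 10 equal classes. The depth in reads is unknown, since the lists give peaks only. The steps were tested on simulated data. Python 3.11.15, numpy 2.4.6, pandas 2.3.3 and scipy 1.17.1 were used.

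Regions named are each gene's promoter region (nearest within 1 kb of the start), the strongest other region, and up to 5 closed and 5 opened regions per comparison by q-value. Further ones, and the highest and lowest kept regions, were named after their values were seen. The genes and lists were chosen with earlier results of these data known. Alternatives covered thresholds, list length, overlap, window, scaling, replicates and bounds. RefSeq tables (GRCh38.p14) gave promoters, motifs and gene order but no coordinates for regions. The strands of JUN and JUND come from them and that of FOSL1 from general knowledge.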

Additional observations from a re-analysis of the deposited data

How the results depend on the processing

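No paired analysis was possible because presence and absence calls come from no model and no label says that replicate numbers mark shared cultures. The local-background bounds, strength-weighted shares and the replicate checks of signals and peak numbers were chosen after seeing the data. For Sen against Pro, the median kept difference of −0.36 became −0.45 with background scaling and −0.38 to −0.32 leaving out 1 library, and the promoters of all 8 genes kept their direction in each such run. Kept regions lower in Sen numbered 47 to 50, and higher ones 7 to 11 (13 with Sen replicates 3 and 4 only). Closed regions numbered 2 and 0 at −log10 q of at least 5 and 20, 4 in lists of equal length, 0 and 4 in windows of 25 and 100 kb, 3 with Sen replicates 3 and 4 only, 0 at a local 2-fold bound with or without scaling, and 1 to 3 leaving out 1 library. Opened regions numbered 5 in lists of equal length, 3 and 20 in windows of 25 and 100 kb, 14 with Sen replicates 1 and 2 only, 4 at a local 2-fold bound with or without scaling, and 9 to 11 leaving out 1 library. The peak ratio became 0.801 per 1000 peaks and 1.19 to 1.28 leaving out 1 library. For siFOXF1/2, closed regions numbered 6 (100 kb), 7 and 6 (Sen replicates 1 and 2 or 3 and 4 only), 0 and 1 (local bound, unscaled and scaled) and 3 to 5 (leaving out 1). Opened ones numbered 5 when peaks had to cover 50% of a region, 0 and 11 (25 and 100 kb), 6 and 8 (Sen replicates 1 and 2 or 3 and 4 only) and 4 to 11 (leaving out 1). With background scaling the median was 0.20, with 6 kept regions lower and 30 higher. Sen replicates 1 and 2 only gave 24 lower and 16 higher, 3 and 4 only gave 35 and 14, and leaving out 1 library gave 16 to 28 lower, 6 to 13 higher, medians of −0.08 to −0.03 and peak ratios of 0.957 to 1.04. For JUN-family knockdown, background scaling turned the median to −0.76, with 61 lower and 1 higher, and the promoters of JUN, JUNB, FOSL1 and FOSL2 to −0.55, −0.60, −0.74 and −0.68, the scaling itself being the difference. Closed regions numbered 11 (−log10 q of 20), 1 (equal length), 19 (50% cover), 4 and 20 (25 and 100 kb), 14 and 13 (Sen replicates 1 and 2 or 3 and 4 only), 3 (background 2-fold bound, scaled), 2 and 0 (local bound, unscaled and scaled) and 9 to 12 (leaving out 1). Opened ones numbered 3 (equal length), 2 (100 kb), 2 (Sen replicates 1 and 2 only) and 0 to 3 (leaving out 1). Lower and higher kept regions numbered 11 and 33 (Sen replicates 1 and 2 only), 14 and 32 (3 and 4 only), and 7 to 14 and 22 to 34 (leaving out 1), with medians of 0.04 to 0.13. The peak ratio was 1.34 per 1000 peaks and 0.773 to 0.850 leaving out 1. For sip300/CBP, closed regions numbered 0 (−log10 q of 20), 2 (equal length), 14 (100 kb), 1 and 2 (background bound, unscaled and scaled), 0 (local bounds) and 7 to 15 (leaving out 1), and opened ones 0 (−log10 q of 20), 2 (equal length), 5 (background bound), 0 (local bounds) and 9 to 17 (leaving out 1). Higher kept regions numbered 6 with background scaling, and leaving out 1 library gave 8 to 14 lower, 20 to 27 higher, medians of 0.00 to 0.18 and peak ratios of 0.855 to 1.14. For sip65, closed regions numbered 1 (−log10 q of 20), 3 (equal length), 7 and 22 (25 and 100 kb), 1 and 6 (background bound, unscaled and scaled), 0 (local bounds) and 13 to 32 (leaving out 1), and opened ones 0 at −log10 q of 20, at 25 kb, at the unscaled background bound (1 when scaled) and at the local bounds, and 1 to 7 leaving out 1. Background scaling gave 0 lower and 3 higher, leaving out 1 library gave 7 to 13 lower, 7 to 18 higher, medians of −0.01 to 0.04 and peak ratios of 0.414 to 0.814, and the ratio per 1000 peaks was 1.27. Libraries whose omission moved a count over 1.5 times were Sen 1 and 2 and Pro 1 (Sen against Pro), both siFOXF1/2 and Sen 2 and 3, both JUN-family knockdown and Sen 2 and 4, and all 4 single-end libraries of each knockdown comparison. Fewer libraries or a wider window admit more calls by construction, and for the other alternatives the cause was not tested.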
